A study of Mus musculus with 8 samples.

Results

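The mouse genome holds a family of vomeronasal type 1 receptor genes (Vmn1r) spread over several chromosomes, and this report describes the ones on chromosome 6. Members were taken as every counted gene whose GENCODE M21 symbol is Vmn1r followed by digits and whose first listed exon lies on chromosome 6, ordered by start. There were 51 such genes among 48831 counted genes and 207 Vmn1r genes, beside 103 Vmn1r genes on chromosome 7 and 53 elsewhere. RNA was measured in 8 libraries of vomeronasal epithelium from C57BL/6J mice aged 8 weeks, a wild-type inbred strain. The libraries formed 4 groups of 2: male and female pools of 2 mice each whose organ was described as non-flushed, and male and female single mice described as flushed. A shared protocol text states that mice were flushed of blood with heparin without setting the pools apart, so the individual descriptions were used. Flushing, the number of mice per library, the sequencing lane in the file labels and the dated folder in the file headers changed together, so their parts in any difference by preparation cannot be told apart.

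Vmn1r proteins are receptors with 7 membrane-spanning segments that detect pheromones and other social odours. They are made in the apical layer of the vomeronasal epithelium, in sensory neurons that carry the G protein subunit Gnai2 and open the cation channel Trpc2. A mature neuron is thought to transcribe a single receptor gene from one of its alleles, so the RNA of a receptor in whole tissue follows both how many neurons chose it and how much RNA each makes. In bulk tissue these cannot be told apart. Deleting part of the chromosome 6 cluster in mice is known to alter maternal aggression, male sexual behaviour and responses to some pheromones.

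Total counts per library ran from 18763557 to 24965088. The members took 0.0115 to 0.0141% of them in the pools and 0.0221 to 0.024% in the single mice, which is 2366 to 5986 counts per library. The tissue label was checked against neuron markers: Omp, the marker of mature olfactory and vomeronasal neurons, averaged 417 CPM (counts scaled to a common library size) in the pools and 375 in the single mice. The libraries were not of neurons alone. The 7 listed gland genes summed to 96900 to 166000 CPM in the pools and 78600 to 124000 in the single mice. Trpc2 was listed at 0 in all 8 libraries, where its annotation carries a tag for a locus that overlaps another gene. Of the 51 members, 44 passed the filter on low counts and were tested. The labels name separate mice or pools, so replicates are biological, with 2 per group.

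The members lay in 3 sub-clusters, split wherever neighbouring members start more than 1 Mb apart (GRCm38 coordinates from the deposited files). Sub-cluster 1 held 28 genes, Vmn1r4 to Vmn1r31, from 56924015 to 58475343. Sub-cluster 2 held 8 genes, Vmn1r32 to Vmn1r39, from 66552183 to 66805443. Sub-cluster 3 held 15 genes, Vmn1r40 to Vmn1r54, from 89714203 to 90271210. Gaps of 8.08 and 22.9 Mb separated them. All 51 were annotated as protein coding, with coding sequences of GENCODE M21 that translated to 296 to 339 residues without an internal stop.

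Older RefSeq symbols divided the members along the same lines. Of the 36 genes of sub-clusters 1 and 2, 31 carried a V1rc symbol, while every gene of sub-cluster 3 carried V1ra or V1rb (3 of them both, and these were counted as V1rb). Protein identity followed this division. Its median was 73.0% over the 378 pairs within sub-cluster 1 and 83.8% over the 28 pairs within sub-cluster 2. Pairs between these sub-clusters shared a median of 71.6%, whereas pairs that joined sub-cluster 1 or 2 with sub-cluster 3 shared 34.7 and 34.9%. Sub-cluster 3 was itself divided. Its 7 V1rb genes shared a median of 79.7% with each other, and its 8 V1ra genes 77.3%, but pairs across these names shared only 50.3% (range 40.1 to 55.0%). Within the V1ra genes, Vmn1r52 and Vmn1r54 stood apart, and the other 6 shared 77.1 to 95.0%. Vmn1r54 had the lowest identity of all members to its nearest relative, 55.8% with Vmn1r48. For all 51 members, the closest of 155 Vmn1r proteins outside chromosome 6 was Vmn1r1, at 36.3 to 47.0% identity.

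**Figure D1:**
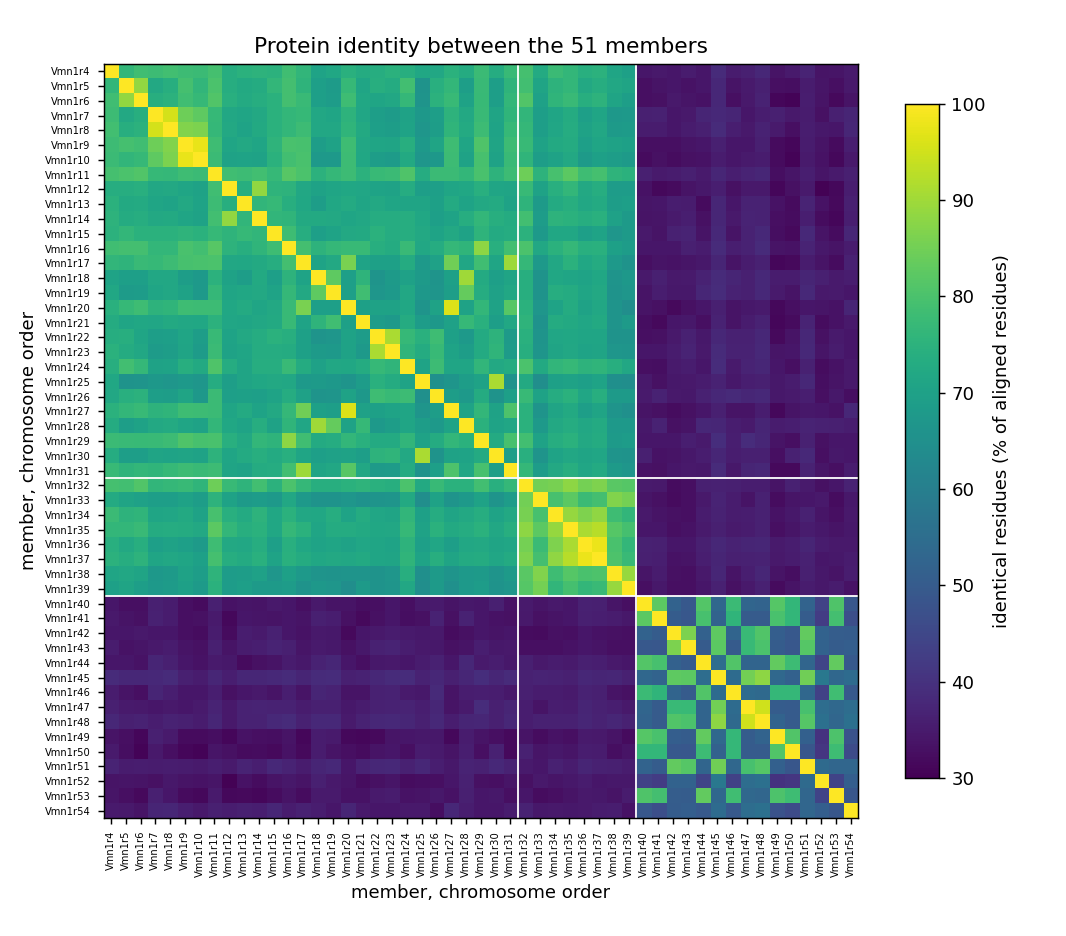
Protein identity (percent of aligned residues, colour scale) between every pair of the 51 members, both axes in chromosome order with white lines between sub-clusters. Sub-clusters 1 and 2 form one block, and sub-cluster 3, where V1ra and V1rb genes are interspersed, shares a median of 34.7 and 34.9% with them.

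The closest pairs matter for the counts, because a 100-base read that fits both genes was divided between them by the authors' counting. The 3 pairs with the highest protein identity were Vmn1r36 and Vmn1r37 (98.0%), Vmn1r9 and Vmn1r10 (97.7%), and Vmn1r20 and Vmn1r27 (96.4%). For each pair the read-length stretch of coding sequence that best separates its genes is shown, 5′ to 3′ in the direction of transcription, with the bases that differ in capitals. These are GENCODE M21 sequences on GRCm38. The first pair differed at 6 of 100 bases here and at 10 in all aligned coding bases, the second at 6 and 16, and the third at 9 and 23.
Vmn1r36, chr6:66716438-66716537, minus strand: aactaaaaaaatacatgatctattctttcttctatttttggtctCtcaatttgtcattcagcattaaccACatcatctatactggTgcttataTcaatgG
Vmn1r37, chr6:66731744-66731843, plus strand: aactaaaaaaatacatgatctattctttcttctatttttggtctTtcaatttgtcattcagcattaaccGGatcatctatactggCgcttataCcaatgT
Vmn1r9, chr6:57071213-57071312, plus strand: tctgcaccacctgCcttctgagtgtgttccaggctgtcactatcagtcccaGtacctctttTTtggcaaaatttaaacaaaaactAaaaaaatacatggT
Vmn1r10, chr6:57113696-57113795, plus strand: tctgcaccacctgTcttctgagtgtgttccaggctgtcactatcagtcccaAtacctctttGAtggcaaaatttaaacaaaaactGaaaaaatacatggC
Vmn1r20, chr6:57432435-57432534, plus strand: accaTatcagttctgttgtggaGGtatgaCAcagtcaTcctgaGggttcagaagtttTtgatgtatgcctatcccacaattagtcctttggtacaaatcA
Vmn1r27, chr6:58215174-58215273, minus strand: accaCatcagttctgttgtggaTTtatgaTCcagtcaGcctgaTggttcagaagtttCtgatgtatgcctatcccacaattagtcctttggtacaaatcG

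Over the whole coding sequence, 25 of the 51 members held no 100-base stretch found in the transcript of another Vmn1r gene. The largest shared part was that of Vmn1r41, of which 88.1% of 100-base stretches also occurred in the pseudogene Vmn1r239-ps. The share was 56.8% for Vmn1r37 and 55.8% for Vmn1r36. The deposited counts show that reads were divided, though only partly in step with these stretches. In 9 members they were whole numbers in all 8 libraries, in 42 they were fractional in at least 1 library, and in Vmn1r11, Vmn1r33 and Vmn1r36 they were fractional in all 8. Of the 25 members with no shared stretch 8 were whole in all libraries, and of the 26 with one, 1 was. Vmn1r33, which shares none, was fractional in all 8 libraries, and Vmn1r41 was whole in 6 of 8. Values of the closest pairs are uncertain as to which gene of the pair they belong.

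Levels were compared between genes as RPKM (CPM per kilobase of exon), because the annotated exon length of members ran from 891 to 11777 bases. The genes of sub-cluster 2 were the most abundant. Their median of mean RPKM was 5.44, against 0.599 in sub-cluster 1 and 0.671 in sub-cluster 3, and the 8 genes took 41.1% of the members' counts. The highest level was that of Vmn1r35 at 14.3 ± 3.81 RPKM (SD, n = 8), with 12.1 and 12.5 in the male pools, 20.4 and 18.2 in the single males and 16.2 and 15.1 in the single females. Its lowest value was 9.92 RPKM, in the first female pool. Vmn1r27 of sub-cluster 1 came next at 6.78 ± 1.94 RPKM, then Vmn1r36 at 6.54 ± 1.98, Vmn1r33 at 5.92 ± 2.22, Vmn1r32 at 5.58 ± 1.98 and Vmn1r34 at 5.30 ± 1.92 (SD, n = 8 each). Vmn1r35 was above Vmn1r27 in all 8 libraries. In the ordered list of the 44 tested members this was the only one of 43 steps larger than the SD over libraries. That SD includes the difference between pools and single mice, and it ignores that both genes are measured in the same libraries. Compared within libraries, this was also the only 1 of the 43 steps in which the higher gene led in all 8.

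At the low end of the tested members stood Vmn1r44 with 0.169 ± 0.0762 RPKM, Vmn1r5 with 0.179 ± 0.0742, Vmn1r14 with 0.215 ± 0.104 and Vmn1r13 with 0.266 ± 0.101 (SD, n = 8 each). These 4 have long annotated exons of 5617 to 7656 bases, so part of their low rank goes with the length in the denominator. By CPM, which ignores length, the order changed: Vmn1r37 led with a mean of 21.2 CPM, followed by Vmn1r51 with 19.5, Vmn1r32 with 13.6 and Vmn1r35 with 12.7. The 6 members with most counts took 46.3% of the members' counts and the leading 10 took 60.4%.

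The 7 members that were not tested were Vmn1r7, Vmn1r15, Vmn1r19, Vmn1r23, Vmn1r24, Vmn1r25 and Vmn1r53. Vmn1r15 had the most, 34 counts over all 8 libraries, Vmn1r19 had 27.5 and Vmn1r7 had 22. Vmn1r23 had 6.5, Vmn1r24 had 5, Vmn1r53 had 3.66, and Vmn1r25 had 1 count in the first male pool. A library at 0 allows up to 3 counts, or 0.118 to 0.172 CPM depending on the library, for counting error only. In a fit without the filter on low counts none of the 7 passed by preparation, sex or interaction. Vmn1r19 came closest, with 1, 0, 3 and 1 counts in the pools and 6.5, 5, 2 and 9 in the single mice (males first; log2 1.80 ± 0.81, unadjusted p = 0.0262, edgeR adjusted p = 0.079).

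**Figure D2:**
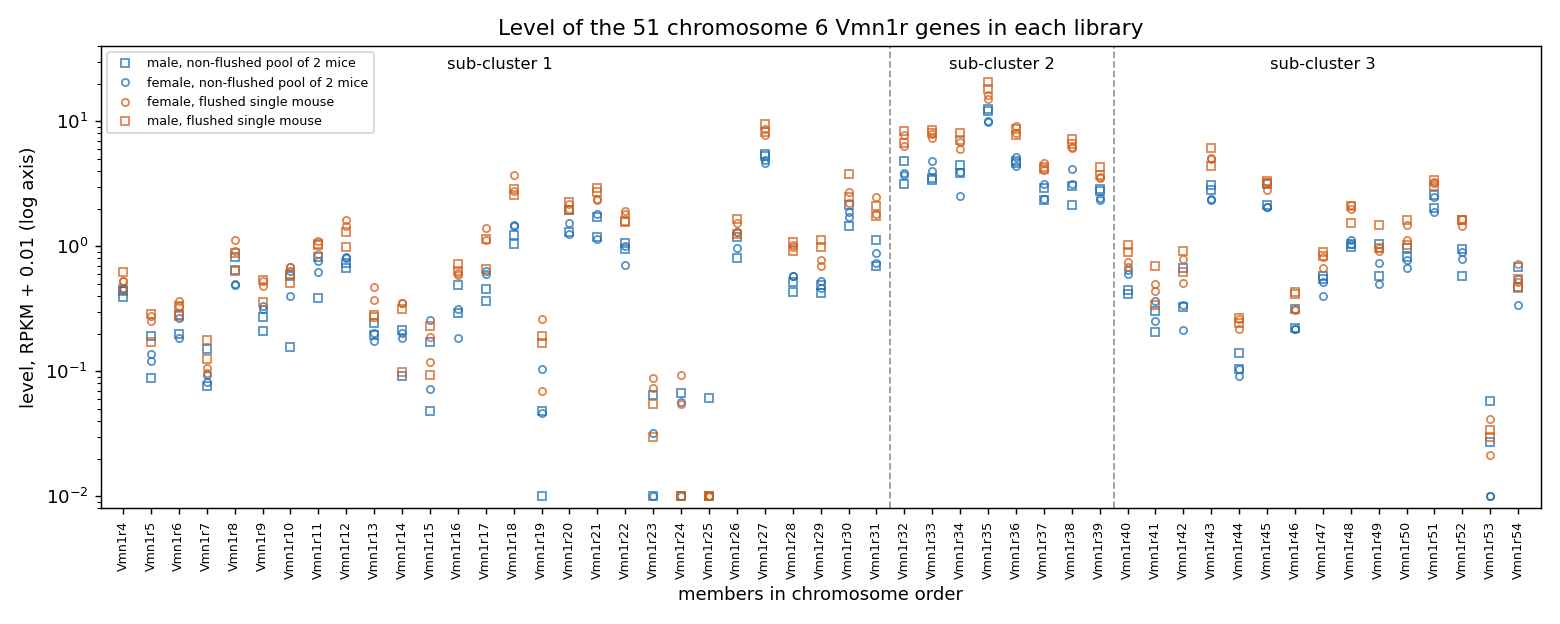
Level of each member in each library, as RPKM + 0.01 on a log axis, in chromosome order; squares are males, circles females, blue non-flushed pools and orange flushed single mice. The 8 genes of sub-cluster 2 lie between 2.14 and 20.4 RPKM, and their median of mean RPKM, 5.44, is above the 0.599 and 0.671 of sub-clusters 1 and 3.

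Against other Vmn1r genes of the same library, the median member stood higher than the median chromosome 7 gene. The difference of median log2(RPKM + 0.1) was 1.68 ± 0.133 (SD, n = 8), positive in 8 of 8 libraries (two-sided exact sign-flip permutation test, p = 0.00781, the smallest 8 libraries allow; adjusted p = 0.0469 over 6 single-value tests). Sign-flip tests of this kind ask whether a difference recurs over these libraries of this strain. They do not ask whether it exceeds the spread between genes. The size of this difference moved with which genes were counted and how. It was 0.582 with only genes past the filter on low counts, and 0.607 with a pseudocount of 1. With only genes that share no 100-base stretch (25 members against 23 chromosome 7 genes) it was 0.171 (exact p = 0.0156). With only genes of whole counts in all libraries (9 against 14) it was reversed, at -0.181 (exact p = 0.0547). Against the 53 Vmn1r genes of other chromosomes the median member was lower by -0.233 ± 0.137 in 7 of 8 libraries (exact p = 0.0156, adjusted p = 0.0469). Leaving out any library except the first male pool gave an adjusted p of 0.0625. With CPM in place of RPKM the difference was -0.843 (exact p = 0.00781, adjusted p = 0.0234), and with only genes of whole counts -0.385 (adjusted p = 0.0234, exact test).

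RefSeq gives a 300-base window around the annotated start (250 bases before, 50 after) for 45 members. In 39 of these a search for the opening stretch of the coding sequence matched inside the window, so the window was not read as a promoter. In 6 it did not match: Vmn1r5, Vmn1r9, Vmn1r32, Vmn1r41, Vmn1r45 and Vmn1r51. The window of Vmn1r9 still ends with its start codon, too near the edge for that match, and was kept in the motif counts. The 3 of the 6 with the highest counts are shown, from RefSeq on GRCm38.p6, 5′ to 3′. Capitals mark CANNTG (an E-box, bound by helix-loop-helix factors) and TAATTA (a homeodomain core), searched on both strands, both of which read the same on either strand.
Vmn1r32, chr6:66559659-66559958, minus strand: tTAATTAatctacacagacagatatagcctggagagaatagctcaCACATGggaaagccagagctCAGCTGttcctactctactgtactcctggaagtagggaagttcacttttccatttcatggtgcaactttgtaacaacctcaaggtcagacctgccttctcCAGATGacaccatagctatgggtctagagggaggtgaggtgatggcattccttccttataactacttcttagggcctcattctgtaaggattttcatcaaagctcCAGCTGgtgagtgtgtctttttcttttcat
Vmn1r45, chr6:89940458-89940757, minus strand: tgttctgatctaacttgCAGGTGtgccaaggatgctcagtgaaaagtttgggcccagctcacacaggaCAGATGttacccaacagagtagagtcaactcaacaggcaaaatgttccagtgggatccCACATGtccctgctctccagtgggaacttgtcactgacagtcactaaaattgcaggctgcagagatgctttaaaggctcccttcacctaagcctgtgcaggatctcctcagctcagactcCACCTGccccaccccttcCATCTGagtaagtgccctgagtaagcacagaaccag
Vmn1r51, chr6:90122393-90122692, plus strand: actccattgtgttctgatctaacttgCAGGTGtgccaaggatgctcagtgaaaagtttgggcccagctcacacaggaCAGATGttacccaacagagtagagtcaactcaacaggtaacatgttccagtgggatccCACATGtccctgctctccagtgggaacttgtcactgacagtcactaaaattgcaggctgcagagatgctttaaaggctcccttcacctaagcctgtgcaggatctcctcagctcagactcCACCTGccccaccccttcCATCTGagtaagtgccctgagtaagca

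The windows of Vmn1r45 and Vmn1r51, both V1ra genes on opposite strands, matched at 289 of 291 aligned bases with no gap. This identity of 99.3% exceeded the 90.5% of their coding sequences. Each held 5 E-boxes in the same order. Vmn1r45 and Vmn1r51, described for these windows after their values were seen, were the fifth and second members by CPM, with 8.90 and 19.5 CPM, and the ratio of the former to the latter was 0.459 ± 0.0590 (SD, n = 8). The windows of Vmn1r5 and Vmn1r32, which lie in different sub-clusters, matched at 236 of 291 aligned bases (81.1%). Because of these matches the 6 windows are not independent of each other. An E-box was in 5 of the 6 windows (83.3%), against 72.3% of 32544 RefSeq windows of this length, chromosome 18 left out. In 160 windows of other Vmn1r genes, from which those with the start codon were not removed, it was 87.5%. TAATTA was in 2 of 6, against 5.29% of all windows and 5.62% of the 160. TATAAA was in 1 of 6, against 13.6% of all windows and 45.0% of the 160. The window of Vmn1r9, which ends with its start codon, held that TATAAA, 1 of the 2 TAATTA matches and no E-box. The Ebf palindrome TCCCNNGGGA, searched on both strands, matched none of the 6 and 0.913% of windows.

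The comparison of flushed single mice with non-flushed pools, with sex in the model, moved most members. Of the 44 members tested, 33 were higher in the flushed single mice and 0 were lower. Across all 20601 genes tested 22.6% were higher and 22.9% lower (edgeR quasi-likelihood test, Benjamini-Hochberg adjusted p under 0.05). The log2 difference was positive in 44 of 44 members, with a median of 0.779, against -0.0173 over all genes. In 31 of the 44, every flushed library exceeded every non-flushed one, against 21.3% of all genes. With males alone 18 of 43 members passed as higher, against 2491 of 19689 genes. With females alone 23 of 44 did, against 2783 of 20113 genes. Of the other Vmn1r genes, 39 of 57 on chromosome 7 and 31 of 46 elsewhere were higher, with medians of 0.807 and 0.679.

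Vmn1r28, a V1rc gene of sub-cluster 1, had the smallest p. It stood at 4.46 and 5.40 CPM in the male pools and 5.98 and 6.03 in the female pools, and at 9.53 and 11.4 in the single males and about as much in the single females (mean of all 4 single mice 10.5 ± 0.779 CPM, SD). All 4 flushed libraries were above all 4 pools, a log2 difference of 0.95 ± 0.11 (SE; adjusted p = 0.00014). Vmn1r35, the most abundant member per length, stood at 10.8, 11.1, 8.84 and 8.98 CPM in the pools (males first) and at 18.1, 16.2, 14.5 and 13.4 in the single mice. It rose by 0.64 ± 0.08 on the log2 scale (adjusted p = 0.00015), again without overlap. Vmn1r33 stood at 3.49, 3.63, 4.10 and 4.92 CPM in the pools and at 8.26, 8.83, 8.17 and 7.64 in the single mice, a 2.04-fold rise (log2 1.03 ± 0.13, adjusted p = 0.00018).

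Vmn1r36 rose by 0.82 ± 0.11 on the log2 scale (adjusted p = 0.00025), from 4.87 ± 0.369 to 8.58 ± 0.646 CPM (SD, n = 4 each). Vmn1r37, its near-identical neighbour, rose by 0.67 ± 0.10 (adjusted p = 0.00049), and the ratio of the first to the second stayed between 0.280 and 0.335 over the 8 libraries. Vmn1r18 rose 2.30-fold, from 1.14, 1.32, 1.55 and 1.58 CPM in the pools to 2.77, 3.10, 4.0 and 2.98 in the single mice (log2 1.2 ± 0.16, adjusted p = 3e-04). Vmn1r27 rose by 0.76 ± 0.10 on the log2 scale (adjusted p = 0.00033), and its near copy Vmn1r20 by 0.49 ± 0.14 (adjusted p = 0.019). Vmn1r44 had the largest difference, and was picked out for it after the values were seen: 0.973, 0.708, 0.708 and 0.613 CPM in the pools and 1.93, 1.75, 1.57 and 1.89 in the single mice, a 2.39-fold rise (log2 1.26 ± 0.20, adjusted p = 0.00081).

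Of the 3 members with the most counts, Vmn1r37 and Vmn1r51 had differences below the members' median (Vmn1r51 is named for its counts, after they were seen). Vmn1r51 stood at 14.5, 18.3, 13.3 and 17.8 CPM in the pools and at 24.2, 21.6, 23.4 and 22.9 in the single mice (log2 0.53 ± 0.11, adjusted p = 0.0026). Vmn1r37 stood at 14.3, 17.6, 14.6 and 18.9 CPM in the pools and at 26.3, 25.3, 28.0 and 24.6 in the single mice, without overlap. Vmn1r32 lay above the median, with a log2 difference of 0.91 ± 0.14 (adjusted p = 0.00051).

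The 4 members with the largest p were Vmn1r54, Vmn1r10, Vmn1r14 and Vmn1r8, and none of them passed. Vmn1r54 had 1.41, 0.976, 0.686 and 1.12 CPM in the pools and 0.951, 1.12, 1.07 and 1.49 in the single mice, so the groups overlapped over most of their range (log2 0.16 ± 0.26, adjusted p = 0.65). Vmn1r10 differed by 0.45 ± 0.33 (adjusted p = 0.29), Vmn1r14 by 0.72 ± 0.37 (adjusted p = 0.14) and Vmn1r8 by 0.53 ± 0.27 (adjusted p = 0.13). Without male mouse 3, left out here because Vmn1r14 was low in it, the difference of Vmn1r14 was 0.98. Over the 8 fits that left out 1 library its difference ran from 0.42 to 1.03. Vmn1r14 passed in an edgeR fit without the filter on low counts (0.75, adjusted p = 0.0146). In females alone Vmn1r8 (1.07, adjusted p = 0.0463) and Vmn1r14 (0.92, adjusted p = 0.0489) passed, while in males alone they were at -0.01 and 0.48. Vmn1r49, known under its older name V1rb2 as a receptor for the urinary pheromone 2-heptanone, stood at 0.814 ± 0.286 CPM in the pools and 1.24 ± 0.301 in the single mice (SD, n = 4 each; log2 0.60 ± 0.27, adjusted p = 0.091).

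By position, 16 of 22 tested members passed as higher in sub-cluster 1, 8 of 8 in sub-cluster 2 and 9 of 14 in sub-cluster 3, against 22.6% of all genes. The difference was positive in every tested member of each. Sub-cluster 2 had the highest counts, with a median of mean CPM of 6.43 against 1.32 in sub-cluster 1 and 1.35 in sub-cluster 3. The counts that passed therefore do not compare like depths. The median log2 differences of sub-clusters 1, 2 and 3 were 0.78, 0.86 and 0.70. Summed over members, sub-cluster 1 went from 41.0 ± 2.22 CPM in the pools to 69.2 ± 3.94 in the single mice, sub-cluster 2 from 54.5 ± 4.23 to 94.0 ± 6.43, and sub-cluster 3 from 40.6 ± 5.28 to 62.6 ± 2.61 (SD, n = 4 each). The ratios were 1.69, 1.73 and 1.54, against 1.66 for all members and 1.76 for chromosome 7. Of the 33 members that passed, 25 passed again in each of the 8 fits that left out 1 library.

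**Figure D3:**
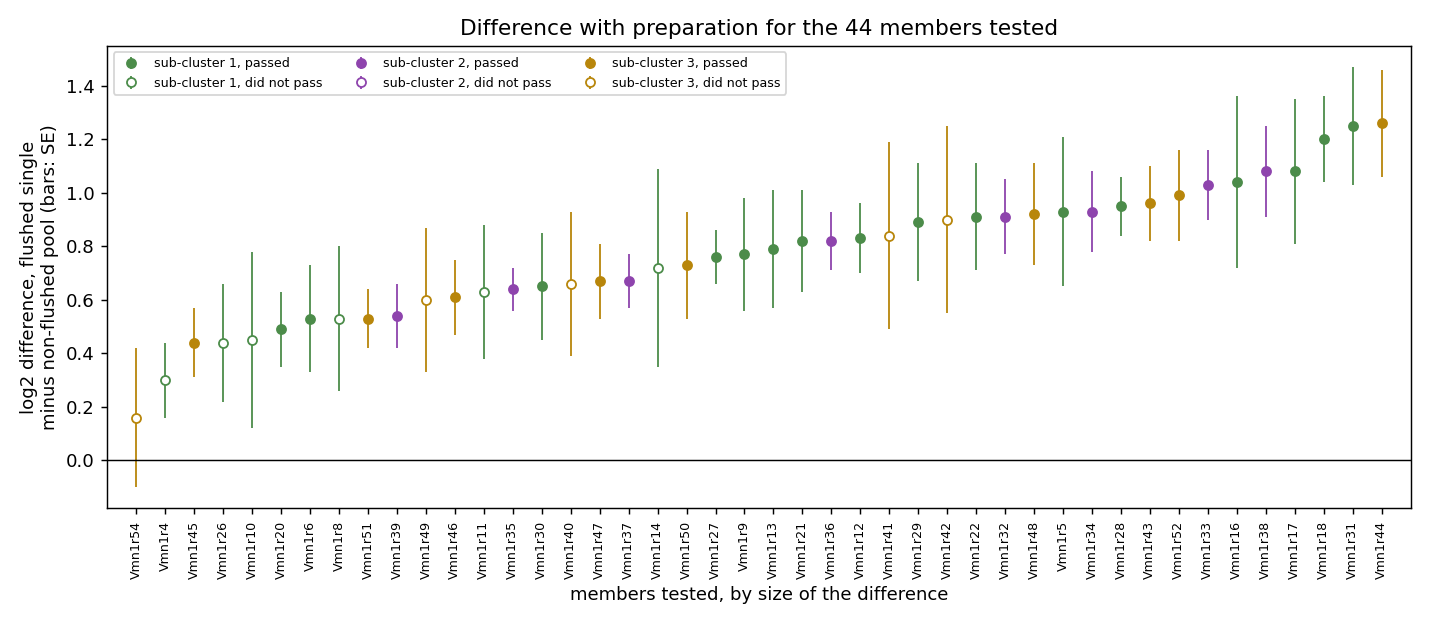
Log2 difference between flushed single mice and non-flushed pools (dots) with its SE (bars) for the 44 members tested, ordered by size; colours mark the sub-clusters and filled dots passed at an adjusted p under 0.05. All 44 dots lie above 0, from 0.16 for Vmn1r54 to 1.26 for Vmn1r44.

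Other RNAs moved with preparation too, where over all genes tested 22.6% were higher and 22.9% lower. Of 7 red cell markers, 7 were lower in the flushed single mice, with a summed level of 1650 to 2050 CPM in the pools and 105 to 621 in the single mice. Of 6 bone markers 4 were lower, and of 6 fibroblast and matrix markers 3 were lower and 2 higher, the summed level of the latter list being 34200 to 44800 CPM in the pools and 16000 to 21400 in the single mice. Of 11 tested markers common to vomeronasal neurons, 4 were higher and 2 lower, with a summed level of 1490 to 1690 CPM in the pools and 1560 to 1690 in the single mice. Of 7 markers of apical neurons, the class that makes Vmn1r receptors, 2 were higher and 2 lower, and the summed levels were 918 to 1000 and 902 to 944 CPM. When library size was taken over the common and apical neuron markers, 33 members were again higher, against 4265 of all 20601 genes, with a member median log2 difference of 0.773. When it was taken over the receptor genes themselves, 0 members were higher and 8 lower, against 197 and 16983 of all 20601 genes. The member median was then -0.148 and the all-gene median -0.939. The part of these other RNAs in the members' difference was not tested further.

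For the remaining marker lists the counts of higher and lower genes were 1 and 0 of 9 for basal neurons, 2 and 1 of 5 for immature neurons, 1 and 1 of 6 for main olfactory neurons, and 0 and 2 of 6 for endothelium. They were 0 and 3 of 7 for glands, 0 and 2 of 6 for ciliated cells, 1 and 2 of 6 for glia and 1 and 2 of 6 for macrophages.

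Genes that act with the receptors moved in both directions, as did all genes tested (22.6% higher and 22.9% lower). Of 11 tested genes of signal transduction, 1 was higher and 5 lower in the flushed single mice, with a median log2 difference of -0.201. Gnb1, a G protein beta subunit, rose by 0.49 ± 0.07 (adjusted p = 0.00048), while Gnai2, the G protein subunit that couples to Vmn1r receptors, fell by 0.36 ± 0.09 (SE; adjusted p = 0.01). Arrb2, an arrestin that shuts receptors off, fell by 0.37 ± 0.07 (adjusted p = 0.0022). Of 7 genes of receptor trafficking 3 were higher and 1 lower (median 0.127). The chaperones Rtp1 and Rtp2, which help chemoreceptors to the cell surface, rose by 0.26 ± 0.07 and 0.23 ± 0.07 (adjusted p = 0.018 and 0.021), Reep1 rose by 0.47 ± 0.09 (adjusted p = 0.0023) and calreticulin (Calr) fell by 0.47 ± 0.05 (adjusted p = 0.00011).

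Of 13 regulators of receptor choice, 4 were higher and 4 lower (median -0.066), against 22.6% and 22.9% of all genes tested. Ldb1, a cofactor that bridges receptor enhancers, fell by 0.51 ± 0.06 (adjusted p = 0.00021), and Ehmt2, a histone methyltransferase, fell by 0.48 ± 0.07 (adjusted p = 0.00048). Cbx5, a heterochromatin protein, rose by 0.42 ± 0.06 (adjusted p = 0.00027), and Ebf2, a transcription factor of olfactory neurons, rose by 0.30 ± 0.06 (adjusted p = 0.0021). No gene of these 3 lists passed by sex.

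Shares of counts do not depend on library size. The members took 27.1 and 27.8% of all Vmn1r counts in the male pools, 26.1 and 26.2% in the female pools, 25.8 and 25.6% in the single males and 25.2 and 25.9% in the single females. All 4 pools were above all 4 single mice, 26.8 ± 0.797% against 25.6 ± 0.302% (SD, n = 4 each). The two-sided exact permutation p was 0.0286, the smallest that 4 against 4 allows, and 0.0571 after adjustment over 6 tests, so it did not pass. As a share of summed RPKM instead of counts the difference was 0.0268 points in the other direction (exact p = 1). Over genes with whole counts only it was -0.0285 points (exact p = 0.943), and over genes with no shared 100-base stretch -2.63 points (exact p = 0.0286, adjusted p = 0.0571).

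Sub-cluster 3 took 30.3 and 31.9% of the members' counts in the male pools, 27.9 and 28.9% in the female pools, 27.7 and 28.6% in the single males and 27.4 and 27.3% in the single females. Its mean was 29.8 ± 1.76% in the pools and 27.7 ± 0.573% in the single mice (exact permutation p = 0.0571, adjusted p = 0.0857). Without the first female pool the difference of -2.02 points became -2.65 (exact p = 0.0286, adjusted p = 0.0429), and without the second male pool -1.29 (exact p = 0.114). It was -4.28 points over genes with no shared stretch (exact p = 0.0571) and -0.913 as a share of RPKM (exact p = 0.229). Sub-cluster 2 took 39.7 to 40.5% in the pools and 39.3 to 42.6% in the single mice, where the lowest value came from a single female, so these ranges overlapped.

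**Figure D4:**
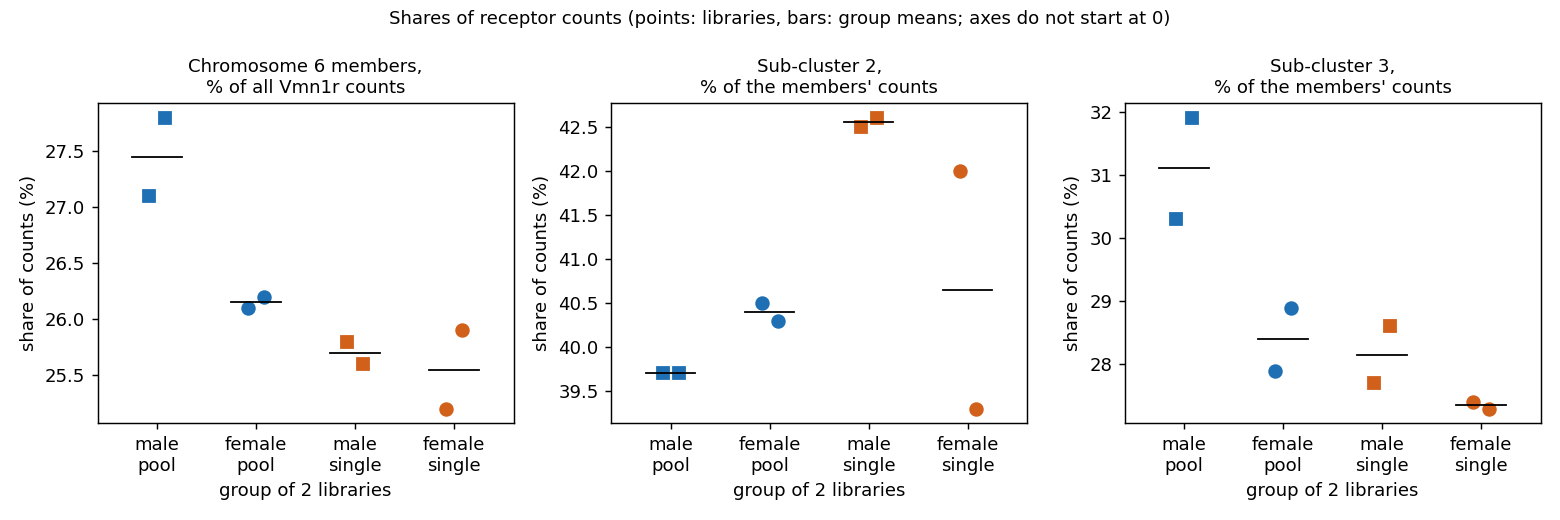
Share of all Vmn1r counts held by the members (left), and share of the members' counts held by sub-cluster 2 (middle) and sub-cluster 3 (right), one point per library and a bar at each group mean; the axes do not start at 0. The male pools hold the highest values in the left and right panels, 27.1 and 27.8%, and 30.3 and 31.9%.

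The comparison of males with females found no member past the threshold. Of 44 members 0 passed, against 0.116% of all genes tested (24 genes), and 3 (6.82%) had an unadjusted p under 0.05, against 7.96% of all genes. DESeq2 and limma-voom also called 0. The difference was positive (higher in males) in 23 members and negative in 21, with a median of 0.01 on the log2 scale and extremes of -0.58 and 0.50. Within pools alone and within single mice alone, 0 members passed as well.

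Vmn1r35 had the smallest p by sex. It was above both female pools in both male pools (10.8 and 11.1 against 8.84 and 8.98 CPM) and above both single females in both single males (18.1 and 16.2 against 14.5 and 13.4 CPM). The log2 difference was 0.30 ± 0.08 (unadjusted p = 0.0027), which did not pass after adjustment over all genes (adjusted p = 0.35, edgeR). Next were Vmn1r46 with 0.37 ± 0.14 (adjusted p = 0.54) and Vmn1r12, lower in males, with -0.32 ± 0.13 (adjusted p = 0.57). Vmn1r34 with 0.30 ± 0.15 and Vmn1r17 with -0.52 ± 0.26 had adjusted p-values of 0.67 and 0.68. In sub-cluster 3, 12 of 14 tested members were on the male side and in sub-cluster 1, 15 of 22 on the female side, none past the threshold. Of all 20601 genes tested 10113 were on the male side, and of the Vmn1r genes on chromosome 7, 18 of 57. Members that divide reads are not independent, and these counts of signs were not tested.

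The share of Vmn1r counts held by the members was 26.6 ± 1.04% in males and 25.8 ± 0.441% in females (SD, n = 4 each; exact permutation p = 0.286, adjusted p = 0.286). As a share of summed RPKM the difference was 1.66 points, higher in males (exact permutation p = 0.0286). Its adjusted p of 0.0429 kept the p-values of the other single-value tests from the main run. No adjusted p with all shares taken as RPKM was computed. The share of sub-cluster 3 among the members was 29.6 ± 1.89% in males and 27.9 ± 0.746% in females (exact permutation p = 0.171, adjusted p = 0.206). Both differences shrank without the second male pool, from 0.723 to 0.327 points for the members' share and from 1.74 to 0.968 for sub-cluster 3.

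Whether the sex difference itself differed between preparations was tested as an interaction. Of 44 members 0 passed (edgeR, DESeq2 and limma-voom), against 0.0485% of all genes, and 1 (2.27%) had an unadjusted p under 0.05, against 3.25% of all genes. This was Vmn1r8, at 0.946 and 1.21 CPM in the male and 0.708 and 0.715 in the female pools, and at 1.29 and 0.922 in the single males and 1.64 and 1.33 in the single females. Its log2 interaction was -1.05 ± 0.46 (adjusted p = 1, edgeR). Vmn1r38 with 0.67 ± 0.30 and Vmn1r13 with -0.83 ± 0.38 followed, both with an adjusted p of 1. With 2 libraries per group, differences of this size could not be told from the spread.

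Spread between libraries of one group was described for the 38 members with a mean count of 20 or more, as the SD of log2(CPM + 0.5) left after the mean of each of the 4 groups is subtracted. Its median was 0.186, against 0.131 over all such genes and 0.166 over the genes in the members' range of counts. Counting alone would give a median of 0.185 at the members' own counts, and 19 of the 38 lay above their counting value, against 78.1% of all such genes and 69.0% of those in the members' range. Those last genes had a higher median of mean counts, 136 against 61.1, so these shares do not compare like depths. The counting value leaves out the 0.5 added to CPM, which lowers the measured SD most at low levels. It is therefore too high there, and the shares above it are too low by an amount not computed. Between the pools the median spread was 0.196 and between the single mice 0.130. Of 38 members, 16 (42.1%) were more variable in single mice than in pools, against 43.6% of all such genes. The members had 2366 to 2853 counts per library in the pools and 4890 to 5986 in the single mice. Counting error was therefore larger in the pools. Over all genes tested the median log2 difference by preparation was -0.0173. Neither comparison is thus at like depth, and whether pools or single mice vary more was not tested.

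Vmn1r14 had the largest spread, 0.493 against a counting value of 0.275, with 1.14 and 0.459 CPM in the male pools and 1.72 and 0.495 in the single males but 0.974 and 1.07, and 1.91 and 1.90, in the female groups. Vmn1r5 followed with 0.352 (counting value 0.260), then Vmn1r49 with 0.282 (0.303) and Vmn1r30 with 0.263 (0.196). Vmn1r49 averaged 1.03 CPM, where the counting value is too high, so its spread cannot be placed above or below counting. Vmn1r32 had 0.260 against a counting value of 0.0823, the widest ratio among these 5, with 7.68 and 11.8 CPM in the male pools. The smallest spreads were those of Vmn1r35 with 0.0691, Vmn1r39 with 0.0705 and Vmn1r27 with 0.0938, all below their counting values of 0.0856, 0.155 and 0.122.

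**Figure D5:**
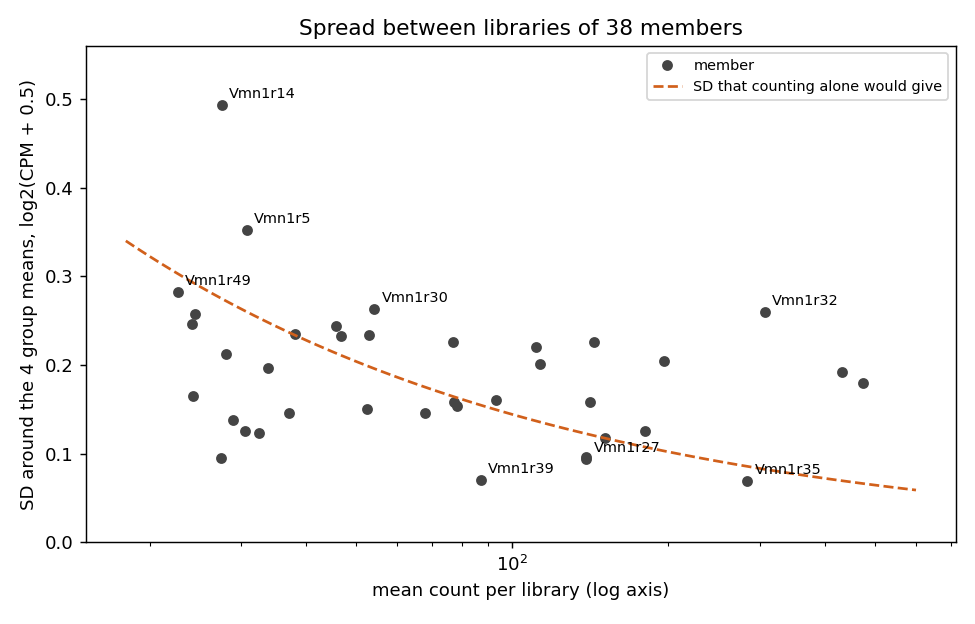
SD of log2(CPM + 0.5) within the 4 groups (vertical axis) against mean count per library (log axis) for 38 members (dots). The dashed line is the SD that counting alone would give without the 0.5 added to CPM, so it is too high at low levels. Vmn1r14 (0.493) has the highest value, and Vmn1r32 (0.260) lies above its counting value of 0.0823.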

How the data were processed

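Poly(A) RNA was sequenced as stranded single-end 100-base reads, per the labels' protocols. The authors' deposited tables give estimated counts per gene (STAR 2.7.1a and featureCounts 1.6.5, per the submitters' processing notes), with reads that fit several places divided between them as fractions, per the file headers (GRCm38, an Ensembl annotation changed by the authors). This division spreads reads over near-identical receptors. For the tests, counts were rounded to whole numbers. Of the 51 members, 33 were named by gene ID and 18 retired IDs by exon overlap on the same strand. All 8 libraries were fitted with edgeR 4.0.16 (TMM, filterByExpr, quasi-likelihood test; sex and preparation as additive terms, or with their product), with Benjamini-Hochberg adjustment over 20601 genes. CPM and RPKM were computed from the unrounded counts with TMM-scaled library sizes. The SE is the log2 difference divided by the square root of F. On simulated data for the preparation comparison (20601 genes, 200 changed), the fit recovered 98% of 2-fold and 100% of 4-fold changes. Of its calls there, 3.88% were false. These rates describe the simulated data only, because in the measured data 22.6% of genes were higher and 22.9% lower. Rates at the members' own counts and spread were not computed, so none is given for low or variable members. Single values were compared by exact permutation tests over libraries. For an alternative of such a test, only its own p was replaced before adjustment, and the other p-values stayed as in the main run. DESeq2 1.42.0, limma-voom 3.58.1, other scalings, filters and sets of genes were alternatives. Sequence identity and windows were computed from GENCODE M21 and RefSeq with Biopython 1.88.

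The members and gene lists were chosen with earlier results of these data known. Named members were the 6 highest and 4 lowest levels, the smallest p by preparation (6), sex (5) and interaction (3), the 4 largest p by preparation, the 3 closest pairs, the member least like any other, the 5 largest and 3 smallest spreads, untested members and V1rb2. From each of 3 pathway lists at most 4 genes were named. There were 13 cell type marker lists. Intervals and limits cover counting error only.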

Additional observations from a re-analysis of the deposited data

Results flagged for a closer look

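In 4 cases 1 of the 4 libraries of a preparation lay far from the other 3 by Dixon's test at the 95% level. Chance flags about 1 in 20 such groups, and both preparations were examined for 44 members. Vmn1r14 stood at 0.495 CPM in male mouse 3, against 1.72 to 1.91 in the other single mice. Vmn1r49 (V1rb2) stood at 1.69 CPM in the same mouse, against 1.05 to 1.11. Vmn1r45 stood at 10.2 CPM in the second male pool, against 6.59 to 6.88 in the other pools, and Vmn1r46 at 3.56 CPM in the same pool, against 2.44 to 2.49.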

How the results depend on the processing

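The count of 33 members higher by preparation ran from 27 to 33 when 1 library was left out and was 31 with DESeq2, 33 with limma-voom and 36 without a filter on low counts. It was 18 with males alone, where 2 libraries stand against 2. With library size taken over the receptor genes 8 members passed, all lower, against 16983 of 20601 genes lower, and 32 of 44 members changed sign. Among members that had passed, these included Vmn1r27 (-0.17), Vmn1r32 (-0.02), Vmn1r35 (-0.28), Vmn1r36 (-0.11), Vmn1r37 (-0.25) and Vmn1r51 (-0.39), and among those that had not, Vmn1r8 (-0.40), Vmn1r10 (-0.46), Vmn1r14 (-0.22), Vmn1r49 (-0.31) and Vmn1r54 (-0.75). That scaling sets the receptors' own sum equal between libraries. The count of 0 by sex and by interaction was 0 in every alternative run. As a share of RPKM, the members' share of Vmn1r differed by 1.66 points by sex and 0.0268 by preparation. The share of sub-cluster 3 by sex was -0.324 points with only genes of whole counts, and by preparation ran from -1.29 to -2.65 points when 1 library was left out. The level against chromosome 7 was -0.181 with genes of whole counts. Against other chromosomes it was -0.124 with genes past the filter, and ran from -0.213 to -0.275 without 1 library. For these the cause was not tested. The set of genes with no shared 100-base stretch was chosen after the data were seen. The titles number the mice of pools and single libraries. Same-numbered pools of the 2 sexes deviated from their group means with a correlation of 0.168 over genes, and the single mice numbered 3 with -0.0059, so the numbers were not taken to pair the libraries. With the numbers as a replicate block, also chosen after the data were seen, 0 members passed by sex, and 11 genes in all against 24. A preparation block was not possible, because a pool mixes 2 numbers. Low counts kept 7 members out of the tests.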
